A study of Homo sapiens with 21 samples.

Results

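Heat shock proteins are molecular chaperones, and the 10 genes described here cover the main classes of the cytosolic and mitochondrial chaperone systems together with the transcription factor that drives their induction. They were taken by symbol from the platform's annotation (HSF1, HSPA8, HSPH1, DNAJB1, BAG3, HSP90AA1, HSP90AB1, HSPB1, HSPD1 and HSPE1), and are 10 of the 18132 genes that the array names. At 250 nM THZ1, by its brightest probe set, DNAJB1 fell 4.41-fold or more in every line with replicates. The other DNAJB1 probe sets had log2 differences between -2.18 and -1.47 in those lines. BAG3 fell by a smaller amount in the same 3 lines, and HSPA8, by its brightest probe set, fell in ZR-75-1 and T47D. By brightest probe set as deposited, the other 7 members moved by no more than 0.26 on the log2 scale at that dose in those lines. Other probe sets reached -0.44 for HSPH1 in T47D. For HSPD1 they ran from -0.43 in MDA-MB-468 to 0.36 in ZR-75-1, and other scalings moved some values. At 50 nM, BAG3 rose in MDA-MB-468 and was below its DMSO level at the higher dose.

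The study treated 4 human breast cancer cell lines for 6 h with THZ1, a covalent inhibitor of the transcriptional kinase CDK7, and measured total RNA on 1-colour 3' expression arrays. MDA-MB-468 and BT-549 are labelled triple-negative breast cancer, a form that lacks oestrogen receptor among other markers, and ZR-75-1 and T47D are the oestrogen receptor-positive lines. Each line has a DMSO group, a 50 nM THZ1 group and a 250 nM THZ1 group, all at 6 h, with 2 arrays per group in each line except BT-549, which has 1 array per dose. This makes 21 arrays in 12 groups. The labels do not say that replicates came from separate cultures, so a p-value here reflects array-to-array spread alone, and that spread may be technical.

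In the cell, HSPA8 is the constitutive HSP70 that folds client proteins in cycles of ATP hydrolysis, J-domain proteins such as DNAJB1 deliver clients and stimulate the ATPase, and HSPH1 and BAG3 release the bound nucleotide. HSP90 acts downstream of HSP70 on kinases and hormone receptors, HSPB1 holds unfolded proteins without ATP, and HSPD1 with its lid HSPE1 folds proteins inside mitochondria. On proteotoxic stress, HSF1 trimerises and binds heat shock elements, which are inverted repeats of GAA and TTC, and many of the genes above are its textbook targets.

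The sequences before the start of these genes are shown because heat shock elements are a known feature of the family. RefSeq promoter entries (GRCh38.p14) were matched for 9 members, with 15 entries, and the 250 bases before each start were searched on both strands. The 2-unit motifs GAANNTTC and TTCNNGAA each read the same on both strands, and the 3-unit motif, in which GAA and TTC alternate at the same spacing, contains both of them. At least 1 of the 2-unit motifs was in 6 of the 15 entries, which belong to 6 members, against 11.6% of 35116 promoter windows of the same length. The windows below are written 5' to 3' on the gene's strand, with the 2-unit motifs in capitals, for the 3 members that fell and 2 that did not. DNAJB1 is the window at chr19:14518398-14518647 (minus strand), HSPA8 is chr11:123062137-123062386 (minus strand), BAG3 is chr10:119651130-119651379 (plus strand), HSP90AA1 is chr14:102087045-102087294 (minus strand) and HSPB1 is chr7:76302423-76302672 (plus strand).
DNAJB1: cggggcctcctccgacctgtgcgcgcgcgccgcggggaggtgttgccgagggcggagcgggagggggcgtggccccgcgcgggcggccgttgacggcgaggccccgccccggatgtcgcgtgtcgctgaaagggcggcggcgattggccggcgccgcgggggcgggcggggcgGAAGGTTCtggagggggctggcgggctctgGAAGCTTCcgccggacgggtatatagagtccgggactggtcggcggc
HSPA8: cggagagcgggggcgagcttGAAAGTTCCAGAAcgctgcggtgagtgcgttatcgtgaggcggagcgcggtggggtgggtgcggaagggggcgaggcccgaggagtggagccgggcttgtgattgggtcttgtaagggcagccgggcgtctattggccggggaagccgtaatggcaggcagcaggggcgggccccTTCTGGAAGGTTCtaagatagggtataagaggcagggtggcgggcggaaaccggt
BAG3: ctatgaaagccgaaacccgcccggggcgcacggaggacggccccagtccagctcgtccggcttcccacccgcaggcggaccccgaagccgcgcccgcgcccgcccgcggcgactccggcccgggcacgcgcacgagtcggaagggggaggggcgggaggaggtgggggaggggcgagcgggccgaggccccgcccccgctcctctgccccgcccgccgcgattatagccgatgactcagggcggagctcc
HSP90AA1: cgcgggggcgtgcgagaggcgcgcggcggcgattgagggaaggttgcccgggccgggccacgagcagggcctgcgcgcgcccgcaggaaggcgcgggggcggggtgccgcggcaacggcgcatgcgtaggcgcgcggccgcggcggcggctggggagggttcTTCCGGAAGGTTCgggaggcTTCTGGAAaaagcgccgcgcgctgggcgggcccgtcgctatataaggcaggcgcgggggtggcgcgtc
HSPB1: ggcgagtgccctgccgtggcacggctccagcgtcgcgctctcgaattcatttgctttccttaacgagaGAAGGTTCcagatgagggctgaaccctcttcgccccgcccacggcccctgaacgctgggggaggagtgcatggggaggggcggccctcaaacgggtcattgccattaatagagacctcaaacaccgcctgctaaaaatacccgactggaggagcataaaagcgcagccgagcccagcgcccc
The DNAJB1, HSPA8 and HSP90AA1 windows lie inside the annotated genes. The DNAJB1 window is before 1 of its 3 listed starts and holds 2 separate 2-unit motifs, beginning 77 and 47 bases before the start. For DNAJB1 and HSP90AA1 the entry shown is the one with motifs, and their other entries hold no 2-unit motif. The HSPA8 window holds 4 overlapping 2-unit motifs in 2 blocks, and each block contains a 3-unit motif, which 0.441% of all windows have. HSP90AA1 has 3 of the 2-unit motifs with 1 of the 3-unit form, HSPB1 has 1, and the BAG3 window has none and is 78.0% G or C. Members that fell and members that did not were thus found both with and without the motif letters in this window, and a match is a description of the letters only.

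HSF1, the transcription factor of the group, was not called against DMSO at either dose in any line, by its 1 probe set. In MDA-MB-468 the 2 arrays read 249 and 237 (MAS5 intensity units) in DMSO, 241 and 212 at 50 nM, and 217 and 208 at 250 nM. The arrays at 250 nM lay below both DMSO arrays. In ZR-75-1 the DMSO arrays read 215 and 226 and those at 250 nM read 237 and 258, above both. In T47D they read 246 and 263 in DMSO and 278 and 288 at 250 nM, again above both. The log2 differences at 250 nM were -0.20 ± 0.08 (SE, n = 2 arrays a group), 0.17 and 0.16 in the same order of lines, and none passed limma's test after Benjamini-Hochberg adjustment over the 12644 genes tested (adjusted p = 0.0631, 0.0973 and 0.132). BT-549 read 352, 351 and 366 at the 3 doses. With every array centred on its median, the ZR-75-1 and T47D differences became 0.42 (adjusted p = 0.000879) and 0.28 (adjusted p = 0.0220).

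DNAJB1, the J-domain partner of cytosolic HSP70, had the largest differences of the 10 members. In MDA-MB-468 its intensity was 1232 and 1478 in DMSO, 1145 and 1148 at 50 nM, and 181 and 222 at 250 nM. In ZR-75-1 it was 854 on both DMSO arrays, 768 and 826 at 50 nM, and 99.2 and 111 at 250 nM. In T47D it was 928 and 944 in DMSO, 887 and 875 at 50 nM, and 187 and 240 at 250 nM. In each line both arrays at 250 nM lay far below all 4 other arrays, and the 50 nM arrays lay slightly below the DMSO arrays. The fall at 250 nM was 2.75 on the log2 scale in MDA-MB-468, 3.02 in ZR-75-1 and 2.14 in T47D (SE 0.12 in each), or 6.73-fold, 8.14-fold and 4.41-fold, with limma adjusted p = 2.13e-11, 4.31e-12 and 7.55e-10. Both ZR-75-1 arrays at 250 nM lay under the mean of their 23 background control probe sets, so the fold there is better given as at least 6.05-fold, against the background. A fixed amount of RNA was labelled, so these values are relative to the RNA of each sample. Less DNAJB1 RNA in every cell and fewer cells holding it cannot be told apart in such bulk samples.

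BT-549, with 1 array a dose and no test, read 696, 408 and 144 for DNAJB1 at DMSO, 50 and 250 nM. The fold was 4.85 at 250 nM, where the reading of 143.5 was barely above that array's background of 141.8. At 50 nM it was 1.70, a log2 difference of -0.77, where the replicated lines had differences of -0.24, -0.10 and -0.09, none called (adjusted p = 0.176, 0.690 and 0.730). The difference between BT-549 and the other lines was not tested. All 3 DNAJB1 probe sets fell at 250 nM in each replicated line, and the log2 differences of the other 2 lay between -2.18 and -1.47 over the 3 lines. In MDA-MB-468 at 50 nM, 1 of the 3 was also lower, by 0.38. Taking the 4 lines as replicates, DNAJB1 fell by 2.55 ± 0.19 (SE) at 250 nM (adjusted p = 6.71e-05), with the ZR-75-1 value as measured under background.

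**Figure D1:**
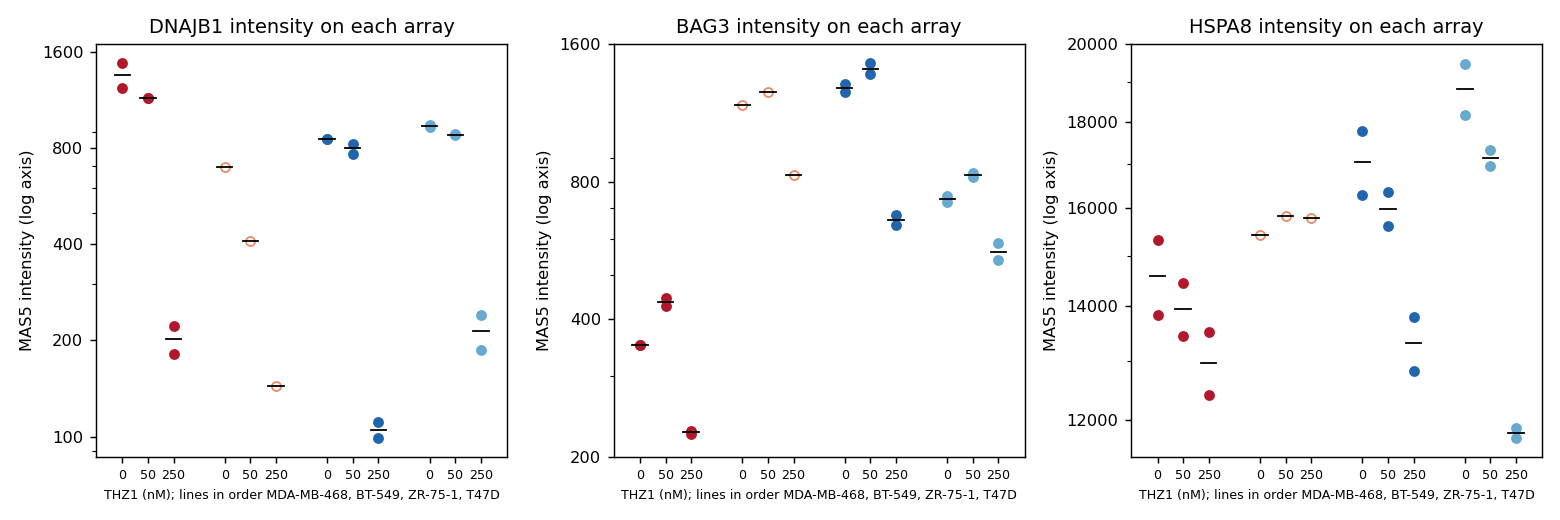
MAS5 intensity (log axis) of DNAJB1, BAG3 and HSPA8 on each of the 21 arrays, by line and THZ1 dose; points are arrays, open for BT-549 with 1 array a dose, and bars are group means. DNAJB1 sits at 99.2 to 240 on every array at 250 nM and at 408 to 1478 on the rest, and in each line BAG3 reads highest at 50 nM and lowest at 250 nM.

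BAG3, the exchange factor that links HSP70 clients to selective autophagy, showed opposite differences at the 2 doses. In MDA-MB-468 it read 352 and 350 in DMSO, 445 and 428 at 50 nM, and 228 and 225 at 250 nM. In ZR-75-1 it read 1309.9 and 1256 in DMSO, 1450.4 and 1377 at 50 nM, and 642 and 677 at 250 nM. In T47D it read 721 and 744, then 834 and 817, then 539 and 586. The 3 dose groups did not overlap in any of these lines, with 50 nM highest and 250 nM lowest. The rise at 50 nM was 0.31 ± 0.06 (SE) in MDA-MB-468 (adjusted p = 0.00169), while the differences of 0.14 in ZR-75-1 and 0.17 in T47D were not called (adjusted p = 0.191 and 0.0947). The fall at 250 nM was 0.63, 0.96 and 0.38 with an SE of 0.06 (adjusted p = 3.11e-07, 1.17e-09 and 8.28e-05). BT-549 read 1176, 1255 and 828, in the same order of doses. These calls held with every array left out in turn, for the rise at values of 0.29 to 0.34. BAG3 has 1 probe set, so no second probe set checks it.

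HSPA8 was among the brightest probe sets of the array, ranking between 2 and 157 of 49395. Its brightest probe set read 18149 and 19475 in T47D with DMSO, 17322 and 16944 at 50 nM, and 11869 and 11709.7 at 250 nM. In ZR-75-1 it read 16281 and 17769.6, then 15619.6 and 16361, then 12822 and 13806. In MDA-MB-468 it read 15325 and 13838, then 13441 and 14459, then 13529 and 12416. The 250 nM arrays were below the DMSO arrays in all 3 lines, by least in MDA-MB-468. The fall was 0.67 ± 0.07 (SE) in T47D (1.59-fold, adjusted p = 5.12e-07) and 0.35 in ZR-75-1 (adjusted p = 0.000244). The difference of -0.17 in MDA-MB-468 was not called (adjusted p = 0.0554), and BT-549 read 15425, 15838 and 15781. The ZR-75-1 call was lost when each array was centred on its median (-0.10, adjusted p = 0.321) or when all probe sets were averaged (-0.39, adjusted p = 0.0664). The MDA-MB-468 difference was called with quantile normalization (-0.30, adjusted p = 2.15e-05) and without DMSO replicate 2 of that line (-0.24, adjusted p = 0.0241), replicate 1 at 250 nM (adjusted p = 0.0357), or DMSO replicate 1 or 2 of ZR-75-1 (adjusted p = 0.0433 and 0.0435).

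In T47D at 250 nM every other HSPA8 probe set had a lower log2 difference than the brightest. In MDA-MB-468 and ZR-75-1 the others were mixed, with the highest at 0.05 and 1.37. The next brightest read 11509 and 11382 in T47D with DMSO, 9657 and 9692 at 50 nM, and 5155 and 5409.6 at 250 nM, a fall of 1.12. In T47D, 8 of the 9 HSPA8 probe sets fell at 250 nM, with a median of -1.32 over the 9. In ZR-75-1, 7 of 9 fell with a median of -0.60, and in MDA-MB-468, 6 of 9 fell with a median of -0.34. In T47D 4 of the 9 were already lower at 50 nM. The ninth probe set varied widely within groups (SE 1.44 on the log2 scale) and was not called in any line at 250 nM. The fall of HSPA8 by the brightest probe set was thus the smallest of the falls in T47D, and cross-hybridisation with HSPA8 pseudogenes was not tested.

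**Figure D2:**
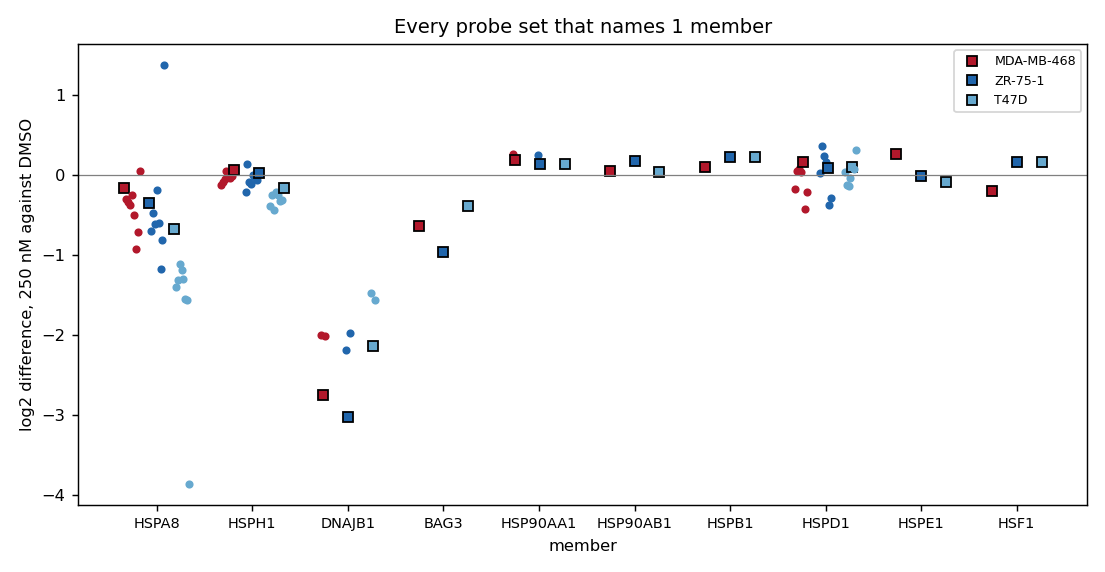
Log2 difference at 250 nM THZ1 against DMSO for every probe set that names 1 member only, in the 3 lines with replicates; large outlined squares are the probe set used for the gene and small circles the others. DNAJB1 falls by all 3 of its probe sets, HSPA8 falls further by most of its other probe sets than by the brightest, and BAG3, with 1 probe set, falls by 0.63, 0.96 and 0.38.

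HSPH1, the HSP110 exchange factor, read 1880.4 and 1957 in ZR-75-1 with DMSO, 2262 and 2208 at 50 nM, and 2039 and 1878 at 250 nM. The 50 nM arrays lay above the other 4. The rise at 50 nM was 0.22 ± 0.06 (SE), close to the threshold (adjusted p = 0.0465), and it was called with 4 of the 18 arrays left out in turn and lost with the other 14 (adjusted p up to 0.196, without DMSO replicate 1 of ZR-75-1). In a fit over all probe sets, 0 of the 8 HSPH1 probe sets were called higher there. In MDA-MB-468 the 50 nM arrays, at 2889 and 2925, also lay above the DMSO arrays, at 2617 and 2569 (0.16, adjusted p = 0.0903). In T47D at 250 nM HSPH1 read 1379.8 and 1319 against 1498 and 1522 (-0.16, adjusted p = 0.0535), and 5 of its 8 probe sets were called lower there. BT-549 read 5655, 6368 and 5739.

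The HSP90 pair was bright and moved little. HSP90AA1, the inducible form, read 7315 and 7096 in MDA-MB-468 with DMSO and 8451 and 7996 at 250 nM. In ZR-75-1 it read 8333 and 8676 in DMSO and 9281 and 9454 at 250 nM, and in T47D 8468 and 8413 against 9467 and 9036. The 250 nM arrays were above the DMSO arrays in each line, and BT-549 went from 8175 to 9036. The rises were 0.19, 0.14 and 0.13 with an SE of 0.05 (adjusted p = 0.00384, 0.0199 and 0.0331). In a fit over all probe sets, both HSP90AA1 probe sets were called higher at 250 nM in MDA-MB-468 and ZR-75-1. In T47D 0 were called (0.12 and 0.13). The second probe set was also called higher in ZR-75-1 at 50 nM (0.23). With quantile normalization the differences of the brightest probe set at 250 nM were 0.03, -0.07 and -0.01 and none was called. The call in MDA-MB-468 was also lost without replicate 1 at 250 nM (adjusted p = 0.0562), in ZR-75-1 without DMSO replicate 1 or replicate 2 at 250 nM (adjusted p = 0.116 and 0.0918), and in T47D without either DMSO array or replicate 1 at 250 nM (adjusted p = 0.0996, 0.122 and 0.209). HSP90AB1, the constitutive form, rose in ZR-75-1 only by the test, from 7069 and 7522 to 8064 and 8451 (0.18, adjusted p = 0.00466). Its differences were 0.05 in MDA-MB-468 and 0.03 in T47D, and the ZR-75-1 value was -0.03 with quantile normalization. The ZR-75-1 call was lost without DMSO replicate 1 or replicate 2 at 250 nM (adjusted p = 0.0537 and 0.0505).

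HSPB1, the small heat shock protein HSP27, read 3047 and 3468 in ZR-75-1 with DMSO and 3799 and 3813 at 250 nM. In T47D it read 4246 and 4280.1 in DMSO, 4595 and 4521 at 50 nM, and 5052 and 4909.9 at 250 nM. The DMSO and 250 nM groups did not overlap in either line, and the rises at 250 nM were 0.23 and 0.22 with an SE of 0.06 (adjusted p = 0.00333 and 0.00511). With quantile normalization they were 0.09 and 0.14, neither called (adjusted p = 0.164 and 0.0522), and the ZR-75-1 call was lost without DMSO replicate 1 (0.13, adjusted p = 0.0702). In MDA-MB-468 HSPB1 read 1024 and 1067 in DMSO and 1096 and 1138 at 250 nM, a difference of 0.10 that was not called (adjusted p = 0.217). BT-549 read 2555, 2877 and 2756.

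The mitochondrial pair gave small and mixed values. HSPE1, the HSP10 lid, read 856 and 786 in MDA-MB-468 with DMSO, 932 and 953 at 50 nM, and 1004 and 962 at 250 nM, a rise of 0.26 ± 0.07 (SE) at 250 nM (adjusted p = 0.00876). That call was lost without DMSO replicate 2 (0.20, adjusted p = 0.0926) or replicate 1 at 250 nM (0.23, adjusted p = 0.0667). In T47D HSPE1 read 507 and 501 in DMSO and 468 and 482 at 250 nM, and in ZR-75-1 1147 and 1170.1 against 1089.8 and 1212. Those differences, -0.09 and -0.01, were not called. HSPD1, the HSP60 barrel, read 7463 and 7111 in MDA-MB-468 with DMSO and 8578 and 7733 at 250 nM. Its differences at 250 nM were 0.16, 0.09 and 0.10 with an SE of 0.07, and none was called (adjusted p = 0.0982, 0.362 and 0.297). In a fit over all probe sets, 2 of the 7 HSPD1 probe sets were called higher in ZR-75-1 at 250 nM. There the 7 ran from -0.37 to 0.36. They ran from -0.43 to 0.16 in MDA-MB-468 and from -0.13 to 0.31 in T47D, where 0 were called at that dose. BT-549 went from 662 to 773 for HSPE1 and from 5294 to 5681 for HSPD1. The remaining HSPE1 probe sets on the array also name the read-through gene HSPE1-MOB4 and were not used.

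**Figure D3:**
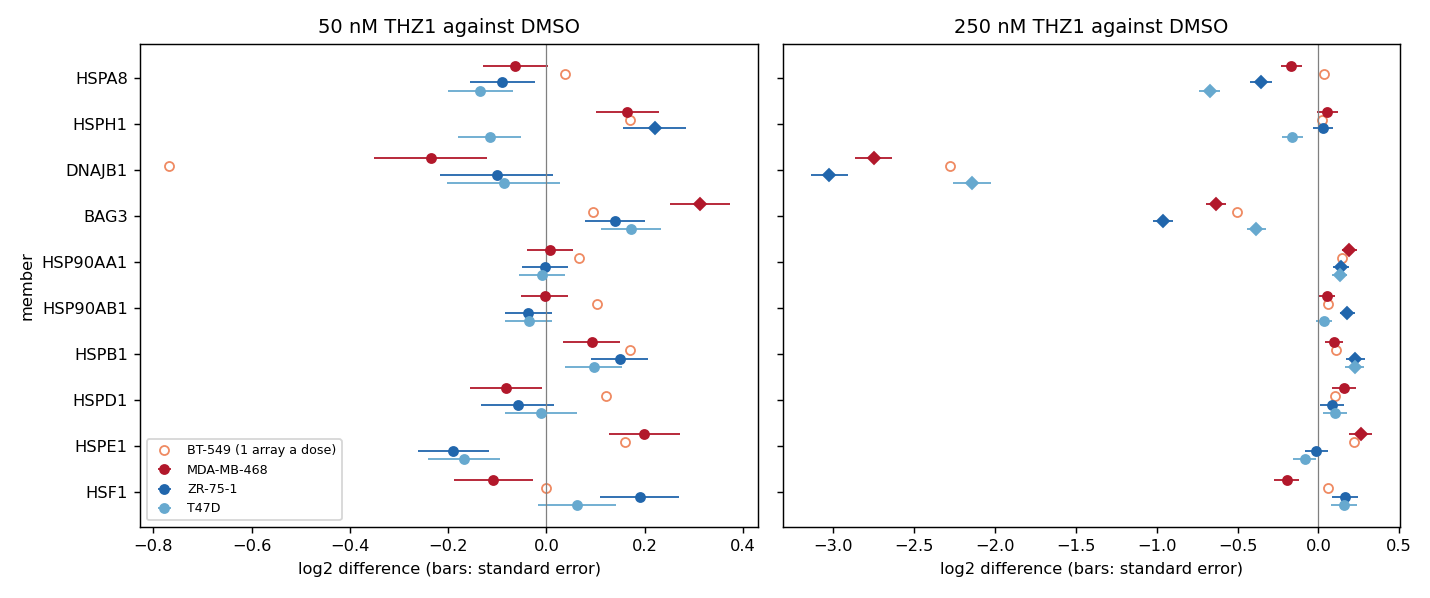
Log2 differences of the 10 members at 50 nM (left) and 250 nM (right) THZ1 against DMSO in the 4 lines, with bars for the standard error in the lines with replicates; diamonds passed limma's test at an adjusted p under 0.05, filled circles did not, and open circles are BT-549, which has no test. The 2 panels have different axes. The called falls at 250 nM run from 0.35 to 3.02 and the called rises from 0.13 to 0.26.

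Counted over the group, MDA-MB-468 had 0 members lower and 1 higher at 50 nM, and 2 lower and 2 higher at 250 nM. Over all 12644 genes, 14.6% were called lower and 4.42% higher at 50 nM, and 30.3% and 9.54% at 250 nM. ZR-75-1 had 0 and 1 at 50 nM (all genes 5.68% and 2.79%) and 3 and 3 at 250 nM (42.8% and 9.93%). T47D had 0 by limma at 50 nM (7.56% and 1.99%), with 1 lower and 1 higher at an unadjusted p under 0.05, and 3 lower and 2 higher at 250 nM (33.7% and 9.61%). The member counts of lower genes at 250 nM were thus near the background shares. The median over the members was 0.05 in MDA-MB-468, 0.06 in ZR-75-1 and -0.03 in T47D at 250 nM, against -0.07, -0.18 and -0.08 over all genes. In BT-549, where a 2-fold difference stands in for a call, 0 members passed at 50 nM (all genes 3.24% lower and 0.174% higher) and 1 was lower at 250 nM (8.94% and 0.182%). With the 4 lines as replicates, 0 members were called by limma at 50 nM (0.316% and 0.182%; 1 higher at an unadjusted p under 0.05) and 3 were lower and 3 higher at 250 nM (29.9% and 9.48%), the higher ones being HSP90AA1 (0.15), HSPB1 (0.16) and HSPD1 (0.11). The DNAJB1, BAG3 and HSP90AA1 calls held with each line left out. The HSPA8 call (-0.29, adjusted p = 0.0312) was lost without MDA-MB-468, without ZR-75-1 or without T47D (adjusted p = 0.0742, 0.119 and 0.0979), as was that of HSPD1 (adjusted p = 0.139, 0.103 and 0.132), and the HSPB1 call was lost without ZR-75-1 or without T47D (adjusted p = 0.0601 and 0.0632).

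The scaling between arrays bears on these small rises. Centring each array on its median raised the median log2 difference of all genes at 250 nM by 0.21 in MDA-MB-468, 0.26 in ZR-75-1 and 0.13 in T47D, and at 50 nM by 0.14 in MDA-MB-468. The share of higher genes among those called at 250 nM went from 23.9% to 55.9%, from 18.9% to 47.6% and from 22.2% to 42.8% in the 3 lines. The falls of DNAJB1 and BAG3 were called under each scaling tried, with DNAJB1 differences of -2.55, -2.77 and -2.02 with median-centred arrays and -2.61, -2.62 and -1.95 with quantile normalization.

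Against 50 nM, the 250 nM dose gave log2 differences of -0.95, -1.10 and -0.56 for BAG3 and -2.52, -2.92 and -2.05 for DNAJB1, in the order MDA-MB-468, ZR-75-1, T47D. The DNAJB1 value of ZR-75-1 rests on arrays under background, and against the background the fall was at least 2.50. These contrasts share the 250 nM arrays with those against DMSO. The members counted 2 lower and 2 higher in MDA-MB-468 (all genes 23.2% and 5.73%), 4 and 2 in ZR-75-1 (41.7% and 6.64%) and 3 and 1 in T47D (27.2% and 4.59%). HSPA8 was the third member lower in both ZR-75-1 and T47D, by 0.26 and 0.54, and HSPH1 the fourth in ZR-75-1, by 0.19 (adjusted p = 0.0217). In ZR-75-1 the HSPA8 call was lost with median-centred arrays (-0.04, adjusted p = 0.740) and with the mean of its probe sets (-0.17, adjusted p = 0.452). The HSPH1 call was lost without replicate 1 at 50 nM or replicate 2 at 250 nM of ZR-75-1 (adjusted p = 0.100 and 0.192), and the value was 0.04 with median-centred arrays. HSP90AA1 was higher in each line, by 0.18, 0.14 and 0.14, but with quantile normalization it was 0.08, -0.05 and 0.02 and none was called. Its call in MDA-MB-468 was also lost without replicate 1 at 250 nM (adjusted p = 0.0949). In ZR-75-1 it was lost without replicate 1 or 2 at 50 nM or replicate 2 at 250 nM (adjusted p = 0.0548, 0.0811 and 0.0921), and in T47D without replicate 1 at 50 nM or replicate 1 at 250 nM (adjusted p = 0.237 and 0.210). With the mean of its probe sets the ZR-75-1 and T47D calls were lost as well (adjusted p = 0.0781 and 0.0620). HSP90AB1 was higher in ZR-75-1, by 0.22, and at 0.01 with quantile normalization (adjusted p = 0.871). HSPD1 was higher in MDA-MB-468, by 0.24. The HSPD1 call was lost without replicate 1 at 50 nM or replicate 1 at 250 nM (adjusted p = 0.142 and 0.205), with quantile normalization (0.16, adjusted p = 0.0786) and with the mean of its probe sets (0.03, adjusted p = 0.783).

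The lines differed in how far some members moved at 250 nM, by the test of the difference itself. DNAJB1 fell further in MDA-MB-468 than in T47D by 0.61 (adjusted p = 0.0196). That call was lost without DMSO replicate 2 or 250 nM replicate 1 of MDA-MB-468 (adjusted p = 0.0777 and 0.0843), and without DMSO replicate 1, DMSO replicate 2 or 250 nM replicate 2 of T47D (adjusted p = 0.0645, 0.0515 and 0.101). Its measured fall in ZR-75-1 exceeded that in T47D by 0.88, but the ZR-75-1 arrays at 250 nM were under background, and taken against the background the difference was at least 0.45, a bound with no test. BAG3 fell further in ZR-75-1 than in T47D by 0.58 (adjusted p = 0.000148) and than in MDA-MB-468 by 0.33 (adjusted p = 0.0116), where the second call was lost with median-centred arrays (0.28, adjusted p = 0.0960). HSPA8 ran the other way, with the largest fall in T47D, exceeding MDA-MB-468 by 0.51 (adjusted p = 0.00165) and ZR-75-1 by 0.32 (adjusted p = 0.0221). The last call was lost with quantile normalization (0.15, adjusted p = 0.0774), without DMSO replicate 1 or 250 nM replicate 2 of ZR-75-1 (adjusted p = 0.0856 and 0.0917), or without DMSO replicate 2 or 250 nM replicate 2 of T47D (adjusted p = 0.102 and 0.0695). Over the members, MDA-MB-468 minus ZR-75-1 gave 1 lower and 1 higher (all genes 3.09% and 19.9%), MDA-MB-468 minus T47D 2 and 2 (8.11% and 6.43%) and ZR-75-1 minus T47D 2 and 1 (19.8% and 2.44%), with DNAJB1 as measured among the 2.

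Before treatment the 3 lines with replicates differed most in HSPB1 and BAG3. HSPB1 in DMSO was 4.08-fold higher in T47D and 3.11-fold higher in ZR-75-1 than in MDA-MB-468, and BT-549 lay between at 2555. BAG3 was 3.65-fold higher in ZR-75-1 and 2.09-fold higher in T47D than in MDA-MB-468, whose 2 arrays read 352 and 350. For HSPD1 and HSPE1 the order was ZR-75-1, MDA-MB-468 and T47D, with ZR-75-1 over T47D by 2.12-fold and 2.30-fold, and each step of both orders was called. The smallest step, HSPD1 in MDA-MB-468 minus ZR-75-1 (-0.23, adjusted p = 0.0130), was lost without DMSO replicate 2 of either line (adjusted p = 0.0846 and 0.158) and with quantile normalization (-0.10, adjusted p = 0.198). HSPH1 was highest in BT-549 at 5655 and lowest in T47D, and DNAJB1 was 1.58-fold higher in MDA-MB-468 than in ZR-75-1, while ZR-75-1 and T47D did not differ by the test for DNAJB1 (adjusted p = 0.343). By their brightest probe sets, HSP90AA1, HSP90AB1, HSPA8 and HSF1 differed by 1.29-fold or less between any pair of replicated lines. With the mean of all probe sets, ZR-75-1 minus T47D was -0.66 for HSPA8 (adjusted p = 0.00329) and -0.32 for HSP90AA1 (adjusted p = 2.01e-06). The members counted 7 lower and 2 higher for MDA-MB-468 minus ZR-75-1 (all genes 30.5% and 35.5%), 4 and 4 for MDA-MB-468 minus T47D (36.8% and 30.8%) and 2 and 5 for ZR-75-1 minus T47D (37.1% and 25.9%).

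**Figure D4:**
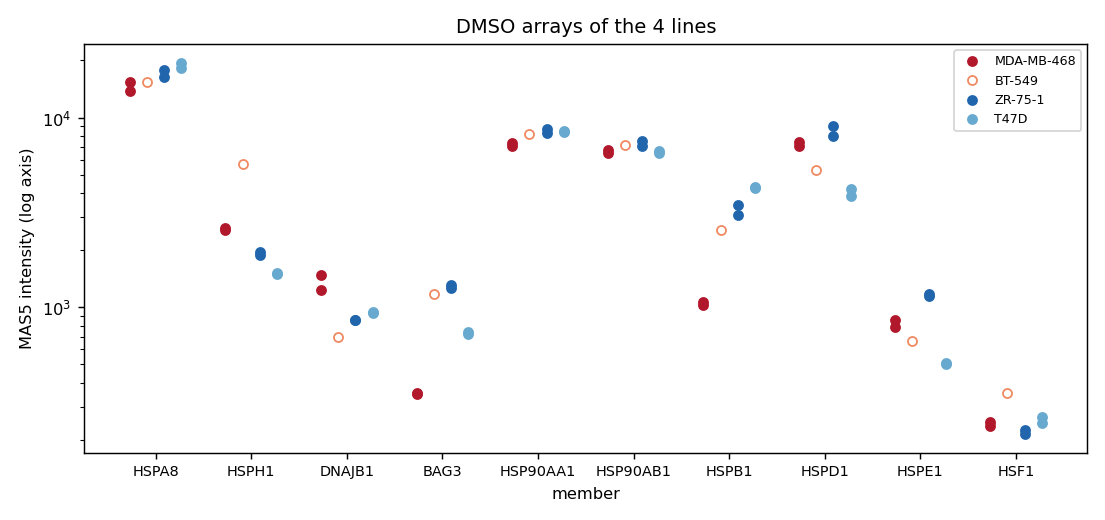
MAS5 intensity (log axis) of the 10 members on the DMSO arrays of the 4 lines; each point is an array, open for BT-549. Levels may be compared between lines within a member but not between members, which have different probe sets. BAG3 is lowest in MDA-MB-468 at 350 to 352, and HSPB1 runs from 1024 in MDA-MB-468 to 4280.1 in T47D.

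A wider set of 122 chaperone and cochaperone genes in 9 lists by role, none of them a member, was examined beside the 10. The array names 115 of them and 105 were tested. At 250 nM, 30 were lower and 17 higher in MDA-MB-468, 48 and 15 in ZR-75-1, and 37 and 11 in T47D, with medians of 0.03, -0.19 and -0.09. Over all genes tested, 30.3%, 42.8% and 33.7% were lower and 9.54%, 9.93% and 9.61% higher, with medians of -0.07, -0.18 and -0.08, and the counts of each list are to be read against these shares. Among 38 J-domain genes, 13, 24 and 18 fell and 4, 1 and 2 rose in the same order. DNAJB9, an endoplasmic reticulum J-domain protein, fell from a mean of 379.7 to 180.0 in T47D (1.08 on the log2 scale), by at least 2.64-fold in MDA-MB-468 and by at least 4.03-fold in ZR-75-1, where both arrays at 250 nM lay under background. Among 9 further exchange factors, 5, 6 and 6 fell and 2 rose in each line. GRPEL2, a mitochondrial exchange factor, fell by 1.59, 2.08 and 1.44, and BAG4 fell by 0.79, 1.16 and 0.56. Neither of these was called at 50 nM in any of the 3 lines.

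Among 19 cochaperones of HSP90 and HSP70, calls ran in both directions, with 3, 6 and 4 lower and 4, 5 and 5 higher. CHORDC1, an HSP90-binding protein, fell by 0.46, 0.89 and 0.68, and CDC37, which loads kinases onto HSP90, rose by 0.43, 0.53 and 0.31. Of 14 TRiC chaperonin and prefoldin genes tested, 0, 1 and 2 fell and 3, 2 and 2 rose. PFDN1, a prefoldin subunit, fell by 0.55 in ZR-75-1, and PFDN5, another, rose by 0.28, 0.36 and 0.24. HSP90B1, the HSP90 of the endoplasmic reticulum, rose by 0.26 in MDA-MB-468 and 0.27 in ZR-75-1 (adjusted p = 0.00536 and 0.00247), but was 0.12 and 0.05 with quantile normalization, neither called. In MDA-MB-468 that call was lost without DMSO replicate 1 (0.14, adjusted p = 0.120).

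HSPA1B, the stress-inducible HSP70, had the same order of doses as BAG3 in the replicated lines. It read 1022.5 and 877 in MDA-MB-468 with DMSO, 1542 and 1452 at 50 nM, and 511 and 485 at 250 nM. In ZR-75-1 it read 700.3 and 827, then 983 and 934, then 586 and 545, and in T47D 1457 and 1541, then 1669 and 1619, then 935 and 856. The 3 dose groups did not overlap in any of these lines. The rise at 50 nM was 0.66 ± 0.09 (SE) in MDA-MB-468 (adjusted p = 5.81e-05) and 0.33 in ZR-75-1 (adjusted p = 0.0260), and 0.13 in T47D was not called (adjusted p = 0.407). The fall at 250 nM was 0.93, 0.43 and 0.74 (adjusted p = 2.26e-07, 0.000487 and 3.29e-06). In ZR-75-1 the call at 50 nM was lost without DMSO replicate 1, or replicate 1 or 2 at 50 nM (adjusted p = 0.228, 0.149 and 0.0714), and both ZR-75-1 calls were lost with median-centred arrays (0.35 and -0.18, adjusted p = 0.0631 and 0.166). BT-549 read 863, 1450.1 and 885, higher at 50 nM by 1.68-fold and back near DMSO at 250 nM. HSPA1B has 1 probe set of its own, and reads of its near-identical copy HSPA1A, not analysed here, may be included.

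**Figure D5:**
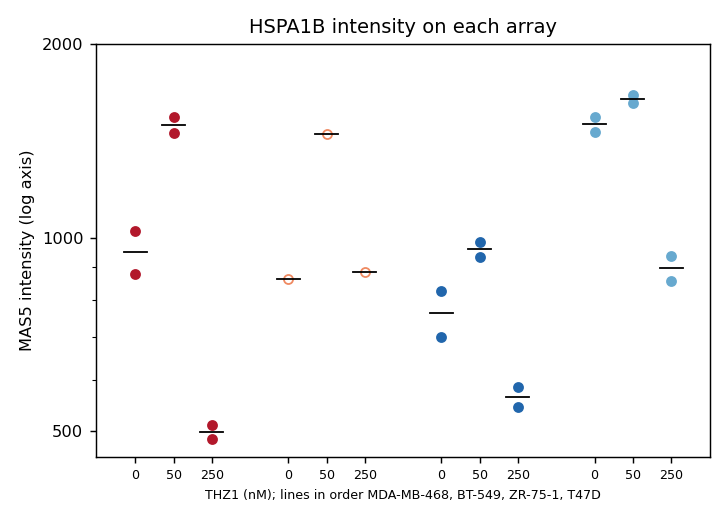
MAS5 intensity (log axis) of HSPA1B on each of the 21 arrays, by line and THZ1 dose; points are arrays, open for BT-549, and bars are group means. The highest group is 50 nM in each line, at 1452 to 1542 in MDA-MB-468, and the lowest is 250 nM in the 3 lines with replicates.

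Over the 12 means of line and dose, after each line's mean was subtracted, the genes most like DNAJB1 were FNDC3B (Pearson r = 0.998), ZNF256 (0.998) and OBI1 (0.997). Their log2 differences at 250 nM in MDA-MB-468 were -1.06, -1.83 and -2.06. Among the members the highest correlations were between DNAJB1 and BAG3 (0.937) and between HSP90AA1 and HSPD1 (0.900), and the lowest was between DNAJB1 and HSP90AA1 (-0.984). All these values share the same 12 means, which are ordered mainly by dose, and are descriptions without a test. They use the values as deposited, and the small HSP90AA1 and HSPD1 differences behind them changed with the scaling between arrays.

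By ESR1 the lines matched their labels, while other markers of cell type were mixed. ESR1, the oestrogen receptor, read 30.9 in MDA-MB-468 and 18.4 in BT-549 with DMSO, both under background, against 442 in ZR-75-1 and 906 in T47D. VIM was at 14442 in BT-549 and 691 in MDA-MB-468, and KRT5 at 3505 in MDA-MB-468. FN1, another mesenchymal marker, was above background in every line with DMSO, from 311 in T47D to 1631 in BT-549. The epithelial markers CDH1 and EPCAM were above background in every line except BT-549 (34.9 and 11.2). The basal keratins KRT5 and KRT14 were under background in BT-549 with DMSO (41.7 and 36.2). EGFR, also a basal marker, was above background in BT-549 (235), MDA-MB-468 (4267) and T47D (148) with DMSO. The luminal genes KRT8, GATA3 and FOXA1 were above background in MDA-MB-468 with DMSO (6354, 328 and 277), as was GATA3 in BT-549 (139). Of 3 immune markers found on the array only CD14 in MDA-MB-468 was above background on any array, and neither of 2 endothelial markers was in any line. Of 2 adipocyte markers, PLIN1 was not above background on any array and ADIPOQ was so on 1 of the 2 T47D arrays at each dose (means 121, 106 and 118). For both oestrogen receptor-positive lines, the source name in the labels reads MDA-MB-468 while title and cell line give the line used here. The array means lay between 326 and 343.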

How the data were processed

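Total RNA from 4 breast cancer lines was measured on 21 Affymetrix PrimeView arrays. The deposited values are MAS5 intensities on a linear scale, per the submitters' processing notes, which name MAS5 without a version; no source used here gives the scaling between arrays. Spike-in RNA was added by cell number before a fixed amount of RNA was labelled, per the labels' protocols, and no spike-in probe set was named.

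Values under 1 were set to 1, log2 was taken, and nothing was rescaled. Each gene is its brightest probe set that names 1 gene (44994 of 49395 probe sets do, 1832 name several and 2569 none). Genes were tested if at least 1 group mean was at or above the overall median (intensity 57.4), 12644 of 18132, and all 10 members passed. limma 3.58.1 (R 4.3.3; lmFit, eBayes with trend) was fitted to 9 group means over 18 arrays, with Benjamini-Hochberg adjustment over all genes tested and a call at an adjusted p under 0.05. BT-549 has no test, and 2-fold counts as a call there. The 4-line comparison used 12 line-by-dose means with line as a term. Background is the mean of 23 background probe sets on each array (100.4 to 147), a bound used here after the values were seen. The number of arrays limits the precision. The fits were tested on simulated data. The members and lists were chosen with earlier results of these data known. The named list genes are among up to 2 lowest and 2 highest of a list by mean moderated statistic at 250 nM. Alternatives were median-centred arrays, quantile normalization, log2(value + 16), no filter, the mean of all probe sets, a replicate block, separate fits per line, and leaving out each array or line.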

Additional observations from a re-analysis of the deposited data

Results flagged for a closer look

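The response at 250 nM differed between lines for 5 of the 10 members, by limma's test of the difference itself on the log2 scale (n = 2 arrays a group). Each value is the first line's change minus the second line's. Over all genes, 3.09% were called lower and 19.9% higher for MDA-MB-468 minus ZR-75-1. The shares were 8.11% and 6.43% for MDA-MB-468 minus T47D, and 19.8% and 2.44% for ZR-75-1 minus T47D. The 5 members are counted over these 3 contrasts together, for which no joint share of all genes was computed. DNAJB1 gave -0.61 for MDA-MB-468 minus T47D and -0.88 for ZR-75-1 minus T47D. The first ranged from -0.79 to -0.43 with each array left out in turn, and its call was lost in some of those fits. The second DNAJB1 value rests on ZR-75-1 arrays under background at 250 nM, and against the background the difference was at least 0.45, with no test. BAG3 gave 0.33 for MDA-MB-468 minus ZR-75-1, lost with median-centred arrays (0.28, adjusted p = 0.0960), and -0.58 for ZR-75-1 minus T47D. HSPA8 gave 0.51 for MDA-MB-468 minus T47D and 0.32 for ZR-75-1 minus T47D, the latter lost with quantile normalization (0.15, adjusted p = 0.0774). HSF1 gave -0.36 for MDA-MB-468 minus ZR-75-1 (adjusted p = 0.0296) and -0.35 for MDA-MB-468 minus T47D (adjusted p = 0.0482), although its change was not called within any line. The first HSF1 difference was lost without DMSO replicate 1 or 250 nM replicate 2 of MDA-MB-468 (adjusted p = 0.102 and 0.0932), or without DMSO replicate 1 or 250 nM replicate 2 of ZR-75-1 (adjusted p = 0.0962 and 0.119), and the second with 14 of the 18 arrays left out in turn (adjusted p up to 0.170, without DMSO replicate 1 of T47D) and with median-centred or quantile-normalized arrays or no filter (adjusted p = 0.187, 0.0690 and 0.0734). HSPE1 gave 0.35 for MDA-MB-468 minus T47D (adjusted p = 0.0341), lost with 7 of the 18 arrays left out in turn (adjusted p up to 0.109, without DMSO replicate 2 of MDA-MB-468) and with quantile normalization (0.19, adjusted p = 0.329).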

How the results depend on the processing

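The falls of DNAJB1 and BAG3 at 250 nM passed the test in all 3 replicated lines under each scaling and with each array left out. With median-centred arrays, the higher members numbered 3 in MDA-MB-468 and 0 in ZR-75-1 at 50 nM, 6 and 7 in those lines at 250 nM, and 6 over the 4 lines. Of 12759 genes tested then, 1605 were called higher in MDA-MB-468 and 251 in ZR-75-1 at 50 nM. At 250 nM it was 3479 and 3625 in those lines and 3897 over the 4 lines. ZR-75-1 at 250 against 50 nM then had 2 members lower and 5 higher (all genes 3881 and 2985). The response differences had 0 members higher for MDA-MB-468 minus ZR-75-1 (all genes 1837). They had 1 member lower for MDA-MB-468 minus T47D (all genes 724), and DMSO ZR-75-1 minus T47D had 1 member lower (all genes 4034). HSPE1 in ZR-75-1 at 250 nM became 0.24, and HSPH1 there at 250 against 50 nM 0.0365. With quantile normalization 12764 genes were tested. The higher members numbered 1 in each of the 3 lines at 250 nM (all genes 3094 in MDA-MB-468, 4184 in ZR-75-1 and 3359 in T47D). ZR-75-1 had 0 higher at 50 nM (all genes 406), and T47D had 1 lower and 1 higher at 50 nM (all genes 711 and 533). At 250 against 50 nM, 0 were higher in MDA-MB-468 (all genes 2350) and 2 in T47D (all genes 2022). The response differences then had 2 members higher for MDA-MB-468 minus ZR-75-1 (all genes 1648). They had 1 member lower and 1 higher for MDA-MB-468 minus T47D (all genes 1143 and 885), and 0 higher for ZR-75-1 minus T47D (all genes 774). HSP90AA1 became -0.0701 in ZR-75-1 and -0.0115 in T47D at 250 nM, -0.0511 in ZR-75-1 at 250 against 50 nM and -0.13 for DMSO ZR-75-1 minus T47D. HSP90AB1 in ZR-75-1 became -0.0278, HSPD1 over the 4 lines -0.0194, and HSF1 in ZR-75-1 at 250 against 50 nM 0.43. With the mean of all probe sets, MDA-MB-468 had 1 lower and 2 higher and ZR-75-1 0 higher at 50 nM, 250 against 50 nM had 1 higher in MDA-MB-468 and 0 in T47D, the response of ZR-75-1 minus T47D 2 higher, and DMSO ZR-75-1 minus T47D 4 lower, where HSP90AA1 became -0.32. Without a filter, ZR-75-1 had 0 higher at 50 nM, T47D 1 higher at 250 nM and 0 at 250 against 50 nM, and 1 was lower in both the response of MDA-MB-468 minus T47D and DMSO ZR-75-1 minus T47D. With separate fits, ZR-75-1 had 0 higher at 50 nM, 1 at 250 nM and 1 at 250 against 50 nM, and T47D 2 at 250 against 50 nM. For the mean of all probe sets, no filter and separate fits, no share of all genes is given here. Those counts are thus not a result about the members. The cause was not tested.

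Leaving out each array in turn, the higher members ranged from 1 to 2 in MDA-MB-468 and 0 to 1 in ZR-75-1 at 50 nM (lower 0 to 1 there), and at 250 nM from 0 to 3 in MDA-MB-468, 0 to 3 in ZR-75-1 and 1 to 2 in T47D. At 250 against 50 nM they ranged from 0 to 2, 1 to 3 and 0 to 1. The response of MDA-MB-468 minus ZR-75-1 ranged from 0 to 2 lower and 1 to 2 higher, MDA-MB-468 minus T47D from 0 to 2 lower and 1 to 2 higher, and ZR-75-1 minus T47D from 0 to 1 higher. In DMSO, MDA-MB-468 minus ZR-75-1 ranged from 4 to 7 lower and ZR-75-1 minus T47D from 1 to 3 lower. Leaving out each line, the 4-line comparison at 250 nM had 2 to 3 lower and 1 to 3 higher. No share of all genes is given for these fits, so the ranges describe the stability of the calls only. Correlations of the replicate deviations between doses ran from -0.22 to 0.29, with no common sign over the lines. With 2 arrays a group, whether replicate numbers pair the arrays cannot be settled. With the replicate block ZR-75-1 had 0 higher members at 50 nM, again without a share of all genes here.

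The higher share of all called genes also moved with quantile normalization, to 51.9%, 52.0% and 52.5% for the 250 nM dose (MDA-MB-468, then ZR-75-1, then T47D), and with median-centred arrays to 60.4% from 23.3% in MDA-MB-468 at 50 nM. The 1206, 1256 and 1215 genes higher at 250 nM became 3479, 3625 and 2453 with median-centred arrays and 3094, 4184 and 3359 with quantile normalization. Levels near background limit DNAJB1 at 250 nM in ZR-75-1 and BT-549.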
